A study of Mus musculus with 6 samples.

Results

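The data described here are the transcriptional response to PMA, a phorbol ester, of mouse thymoma cells labelled as a knockdown of SPPL2b. The comparison set 1 library of these cells treated with PMA against 1 library treated with DMSO, the solvent. It covered every locus that reached an FPKM of 1 in either library, where FPKM counts fragments per kilobase of transcript, scaled by the fragments in the library. Of 25001 loci in the series, 10987 met this rule. Of those, 10356 had an annotated gene model, 631 were newly assembled from the reads, and 10624 carried a gene symbol.

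The series holds 6 libraries of the 427 thymoma line and its derivatives, 1 for each condition. The cells of this comparison carry the genotype label SPPL2b KD, were kept without serum for 2 h and then received DMSO or 1 µM PMA for 2 h. Their labels name SPPL2b siRNA as the agent, whereas the study's methods describe a line that stably expresses a short hairpin RNA from the pSUPER vector and was grown from single cells. 427 cells with the empty pSUPER vector, treated in the same way, are set beside them, and the remaining libraries are cells labelled KD that were transfected with GFP or with GFP and a Flag-N55 fragment of epithin and sorted for GFP. No condition was replicated, so no test across replicates was possible, and no p-value is given. A locus is called raised or lowered where PMA and DMSO differed more than 2-fold after 0.01 FPKM was added to both, and log2 fold changes are on that scale, which understates the change of loci with low values.

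PMA takes the place of diacylglycerol on the C1 domains of most protein kinase C isoforms, of protein kinase D and of RasGRP exchange factors. Protein kinase C feeds into the Raf, MEK and ERK kinases and into the IκB kinase pathway. In epithelial cells this leads to the transcription of immediate early genes, whose products include AP-1 factors, and of chemokines, cytokines and ligands of the EGF receptor. The same signal makes ADAM17 cut ectodomains from the cell surface. SPPL2b is an intramembrane protease that cuts the membrane stub left after such shedding, here that of the serine protease epithin, the product of St14.

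The FPKM of the targeted gene went against the label. Sppl2b (chromosome 10, 80853006 to 80868705, plus strand, GRCm38) had an FPKM of 13.4 in the library labelled KD DMSO and 9.37 in the library labelled KD PMA, beside 9.90 and 6.86 in 427 cells with DMSO and PMA. Neither library labelled KD was below its 427 counterpart. The study itself tested its knockdown clones for SPPL2b mRNA by quantitative PCR. It reported that they released less of the intracellular fragment of epithin after PMA. The labels do not name the clone used here. Lsm7, which overlaps this locus by 2204 bases on the other strand, had 33.6 and 60.8 FPKM in the libraries labelled KD DMSO and KD PMA, and the kit is not described as strand-specific. The cells are therefore named below by their label, and every direction given is between the libraries labelled KD DMSO and KD PMA. St14 had 81.8 FPKM with DMSO and 100.4 with PMA, a log2 fold change of 0.30, and Adam17 had 34.8 and 37.1 FPKM, a log2 fold change of 0.09.

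Some epithelial keratins were among the highest transcripts. Krt5 had 4246 FPKM with DMSO and 3851 with PMA, Krt14 had 1785 and 1355, and Krt8 had 310.8 and 403.0, while Krt19, Cldn3 and Cldn7 of the same list of epithelial markers were below 0.2 FPKM in both. Of 9 markers of thymic epithelium, 5 reached the minimum, among them Foxn1, a transcription factor of that tissue, with 13.2 and 7.01 FPKM. Of the others, Aire and Pax1 were listed at 0 in both libraries, and Psmb11, the thymoproteasome subunit, and Dll4 were below 0.1 FPKM. Of 12 T lineage genes looked for, 8 were listed at 0 in both libraries, Cd3e, Cd4 and Cd8a among them, and Rag1 alone reached the minimum, with 3.08 and 2.07 FPKM. The summed FPKM was 3.22 and 2.13 for the 12 T lineage genes, 7.62 and 6.86 for 8 leukocyte and macrophage genes (Csf1r took 6.10 and 5.22), 2.04 and 2.17 for 8 fibroblast genes and 0.0974 and 0.0593 for 5 endothelial genes. None of these T lineage, leukocyte, fibroblast and endothelial genes at 1 FPKM or more was past 2-fold. In RNA from a whole culture, fewer cells of a type and less RNA per cell cannot be told apart. Depth was estimated from the steps of the lowest FPKM values at about 25800000 fragments for DMSO and 29400000 for PMA, and counting intervals below cover counting error only.

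PMA raised 421 of the 10987 loci (3.83%) and lowered 703 (6.40%). Among annotated gene models, 343 of 10356 were raised (3.31%) and 561 were lowered (5.42%). A locus that reaches the minimum in 1 library only is more likely to pass 2-fold, and 76 of the raised annotated loci reached 1 FPKM with PMA alone and 160 of the lowered ones with DMSO alone. Among the 9974 annotated loci at 1 FPKM or more in both libraries, 267 were raised and 401 lowered. Raised loci had a median log2 fold change of 1.49, and 92 of them were past 4-fold and 41 past 8-fold. Lowered loci had a median of -1.29, with 54 past 4-fold and 10 past 8-fold. The larger changes were thus mostly increases. The median over all annotated loci was -0.15, so a typical gene stood slightly lower with PMA. The split between calls varied with the settings. With the PMA library scaled to a median log2 ratio of 0, 541 loci were raised and 495 lowered, so that increases made up 52.2% of calls in place of 37.5%, and with 1 FPKM added, 318 were raised and 322 lowered (49.7%). At a minimum of 10 FPKM, 237 were raised and 219 lowered (52.0%).

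**Figure D1:**
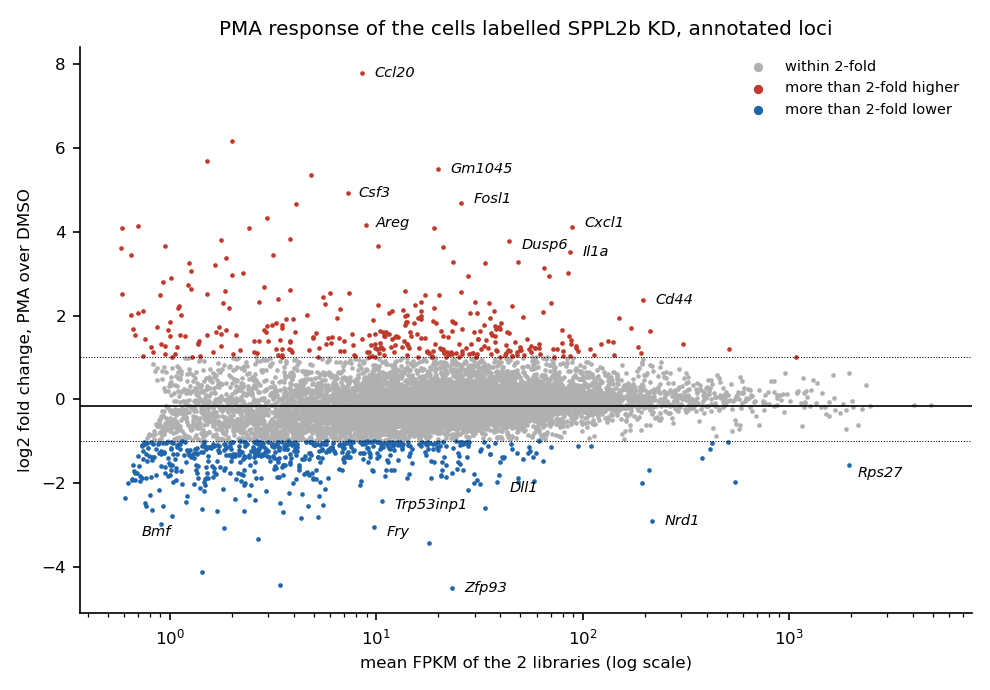
Log2 fold change, PMA over DMSO, against the mean FPKM of the libraries labelled KD DMSO and KD PMA (log axis), 1 point for each annotated locus above 0 in both. Dotted lines mark 2-fold and the solid line the median of -0.15, and at a mean above 10 FPKM Gm1045 and Fosl1 stand highest and Zfp93 lowest.

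Low levels held more calls. Among annotated loci with a mean of 1 to 3 FPKM, 54 of 901 were raised and 175 lowered, and their median log2 fold change was -0.42. At 10 to 30 FPKM, 103 of 3616 were raised and 105 lowered, with a median of -0.18. Above 100 FPKM, 15 of 854 were raised and 10 lowered, with a median of 0.01. At the minimum itself, Samd5 was just inside with 0.728 and 1.00 FPKM, and Rps12-ps3 just outside with 0.999 and 0.926. At the fold threshold, Wdr3 was the raised locus nearest to it, with 20.2 and 40.4 FPKM, and Mdn1 the nearest within it, with 12.3 and 24.7.

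Chemokine ligands were the group that stood highest. Of 16 CXC and CX3C ligand names, 8 were measured at 1 FPKM or more and 7 of these were raised, with a median log2 fold change of 3.48 beside -0.15 for all annotated loci, of which 3.31% were raised. Of the 5 that were at 1 FPKM or more in both libraries, 4 were raised, since Cxcl2, Cxcl3 and Cxcl10 reached that level with PMA alone. Cxcl1, a neutrophil attractant, had 9.65 FPKM with DMSO and 168.2 with PMA, a 17.4-fold rise (counting interval 15.9 to 19.2). Cxcl5, which acts on the same receptor, went from 8.98 to 88.3 FPKM. Both were already well above the minimum without PMA and became abundant transcripts with it.

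Cxcl2 had 0.0450 FPKM with DMSO and 3.96 with PMA, and Cxcl3 had 0.0484 and 2.98. With 0.01 FPKM added to both, the fold changes were 72.3 and 51.2. These DMSO values stand for about 2.4 and 4.4 fragments. The ratios with nothing added have counting intervals of 29.0 to 879.9 and 26.0 to 248.4. Cxcl10, an attractant of activated T cells, had 0.130 and 1.76 FPKM, and Cx3cl1, the membrane-bound fractalkine, had 3.49 and 16.8. Cxcl16 was the remaining raised member. Ppbp, the platelet basic protein, had 84.8 and 122.8 FPKM and was within 2-fold, although it was the most abundant of these ligands with DMSO.

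Of 19 CC ligands, 4 were measured and 3 raised, Ccl20 and Ccl2 of them at 1 FPKM with PMA alone. Ccl20, which draws CCR6-bearing lymphocytes and dendritic cells to epithelia, had the largest increase of all annotated loci with a symbol and at least 10 FPKM. It had 0.0662 FPKM with DMSO and 17.0 with PMA, a log2 fold change of 7.80, and the DMSO value stands for about 2.43 fragments, so the ratio has a counting interval of 86.0 to 2579. Ccl2, a monocyte attractant, had 0.496 and 7.17 FPKM, and Ccl5 had 2.46 and 10.9. Ccl25, the thymic epithelial ligand of CCR9, had 10.8 and 10.5 FPKM and stayed within 2-fold.

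A RefSeq promoter window was found for 6 of the 10 raised chemokine ligands (Cxcl1, Cxcl2, Cxcl3, Cxcl10, Cx3cl1 and Ccl20). In 5 of them the 250 bases before the start held a match to the kappaB consensus, the binding element of NF-κB, and in Cx3cl1 they held none. The 150 bases before the RefSeq start (GRCm38.p6) are printed 5′ to 3′ on the gene's strand for 4 of those with a match and, for comparison of the motif, for Nfkbia, which encodes the NF-κB inhibitor IκBα and was raised 2.01-fold (a log2 fold change of 0.97, within 2-fold, with 1 FPKM added). Capitals mark matches, on either strand, to the kappaB consensus and to a TATA box (TATAAA).
Ccl20, chr1:83116616-83116765, plus strand: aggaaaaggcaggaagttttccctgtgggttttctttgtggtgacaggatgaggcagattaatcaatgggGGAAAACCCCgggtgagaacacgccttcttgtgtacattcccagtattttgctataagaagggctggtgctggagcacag
Cxcl1, chr5:90891095-90891244, plus strand: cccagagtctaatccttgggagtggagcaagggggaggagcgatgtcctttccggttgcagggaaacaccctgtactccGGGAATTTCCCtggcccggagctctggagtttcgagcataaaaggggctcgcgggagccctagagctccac
Cxcl2, chr5:90903749-90903898, plus strand: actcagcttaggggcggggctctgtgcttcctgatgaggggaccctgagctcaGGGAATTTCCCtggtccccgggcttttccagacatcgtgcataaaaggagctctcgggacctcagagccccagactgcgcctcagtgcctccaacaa
Cxcl3, chr5:90785951-90786100, plus strand: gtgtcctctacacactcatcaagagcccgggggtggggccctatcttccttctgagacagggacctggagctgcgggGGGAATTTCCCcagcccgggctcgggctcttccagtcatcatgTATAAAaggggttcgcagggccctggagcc
Nfkbia, chr12:55492648-55492797, minus strand: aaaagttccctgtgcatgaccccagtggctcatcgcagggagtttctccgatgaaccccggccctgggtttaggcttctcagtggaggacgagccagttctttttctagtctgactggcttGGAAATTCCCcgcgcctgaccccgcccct

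The kappaB match began 80 bases before the start of Ccl20, 71 before that of Cxcl1, 97 before that of Cxcl2, 73 before that of Cxcl3 and 29 before that of Nfkbia. In Cxcl1, Cxcl2 and Cxcl3 it was the same run of letters, in which a pair of overlapping matches fell. A match is a description of the letters, not of binding. Of all 32851 promoter windows of 250 bases in the RefSeq table, 3.90% held a kappaB match and 12.4% the TATA letters. Windows were found for 244 of 342 raised loci with a symbol (71.3%), under 80%, so a comparison of motif shares between raised loci and all loci is void and is not given.

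Interleukins and colony-stimulating factors were raised in part. Of 22 interleukin and interleukin-6 family names, 9 were measured and 5 raised, beside 3.31% of all annotated loci. Their median log2 fold change was 1.77. Il1a, the membrane-associated interleukin-1 of epithelia, had 13.9 FPKM with DMSO and 160.5 with PMA, a log2 fold change of 3.52. Il24 had 2.12 and 36.0 FPKM, and Lif, a ligand of the gp130 receptor family, had 6.40 and 49.3. Il1rn, the natural antagonist of the interleukin-1 receptor, had 1.06 and 6.55 FPKM, and Il23a had 6.27 and 21.4, so agonist and antagonist rose side by side. Clcf1 had 22.1 and 38.5 FPKM and Il18 had 18.9 and 11.1, both within 2-fold.

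Of 6 colony-stimulating factors and TNF ligands measured, 3 were raised and 1 lowered, beside 3.31% and 5.42% of all annotated loci. Of the 3 at 1 FPKM or more in both libraries, 1 was raised and none lowered. All 3 measured colony-stimulating factors were raised, but Csf2 and Csf3 reached 1 FPKM with PMA alone. Csf3, the granulocyte factor, had 0.453 FPKM with DMSO and 14.1 with PMA, and Csf1, the macrophage factor, had 13.8 and 60.2. Csf2, the granulocyte-macrophage factor, was listed at 0 with DMSO and at 2.67 with PMA, about 62.7 fragments. Kitl, the ligand of Kit, was lowered from 1.05 to 0.501 FPKM, a log2 fold change of -1.05 that was within 2-fold under 4 alternatives and as small as -0.45 with 1 FPKM added.

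**Figure D2:**
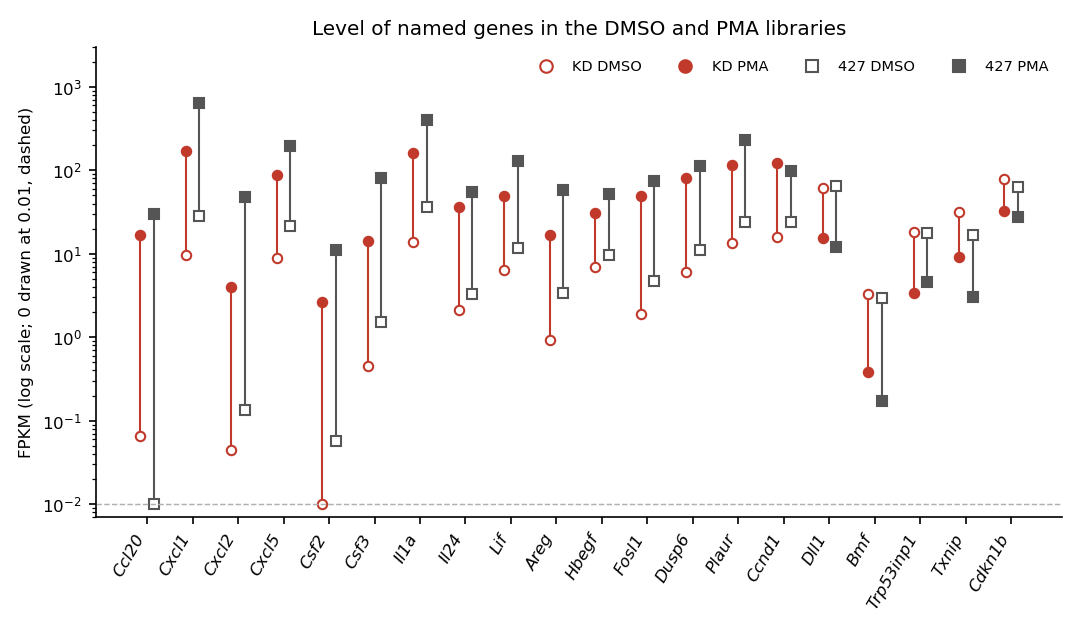
FPKM (log axis) of 20 named genes with DMSO (open) and PMA (filled), for the libraries labelled KD (red circles) and for 427 cells (grey squares), 1 library per symbol with no error bar. A value of 0 is drawn at 0.01, as for Csf2 in KD DMSO and Ccl20 in 427 DMSO; each raised ligand rose in both lines, and Dll1, Bmf, Trp53inp1, Txnip and Cdkn1b fell in both.

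Nearly all measured EGF family ligands were raised. Of 10 ligand names, 7 were measured, 6 raised and 1 lowered, beside 3.31% raised and 5.42% lowered of all annotated loci. Their median log2 fold change was 2.1. The 4 at 1 FPKM or more in both libraries were all raised. Areg and Ereg reached that level with PMA alone, and Nrg2 with DMSO alone. Areg, amphiregulin, had 0.929 FPKM with DMSO and 16.9 with PMA, a log2 fold change of 4.17 (counting interval of the ratio 12.6 to 27.6). Hbegf had 6.93 and 31.2 FPKM, Nrg1 had 6.21 and 26.6, and Tgfa, the most abundant ligand with DMSO, had 26.4 and 68.0. Ereg and Btc rose from lower levels, to 1.80 and 7.40 FPKM. Nrg2 was the lowered member.

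Among the receptors and their Lrig regulators, 6 were measured, none raised and 1 lowered, beside 3.31% and 5.42% of all annotated loci. Erbb3, which signals with Erbb2 on binding neuregulin, was lowered from 27.8 to 12.0 FPKM. Egfr itself had 10.5 and 17.2 FPKM, Erbb2 had 46.4 and 37.7, and Lrig1, which promotes the loss of EGF receptors, had 72.0 and 117.0. These values stayed within 2-fold.

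Several of these chemokines and EGF ligands lie together. Between the start of Cxcl5 and the end of Btc, over 645.5 kb of chromosome 5 (90757614 to 91403073), the files list 13 loci, 10 of which were measured and 8 raised. The raised loci were Cxcl5, Cxcl3, Cxcl1, Cxcl2, Ereg, Areg, Btc and a newly assembled locus (91051271 to 91051967) that went from 0.0808 to 1.39 FPKM. The measured loci within 2-fold were Ppbp and Mthfd2l, a mitochondrial folate enzyme gene with 15.0 and 20.4 FPKM that lies between the chemokines and the EGF ligands. This stretch was chosen after the values had been seen.

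**Figure D3:**
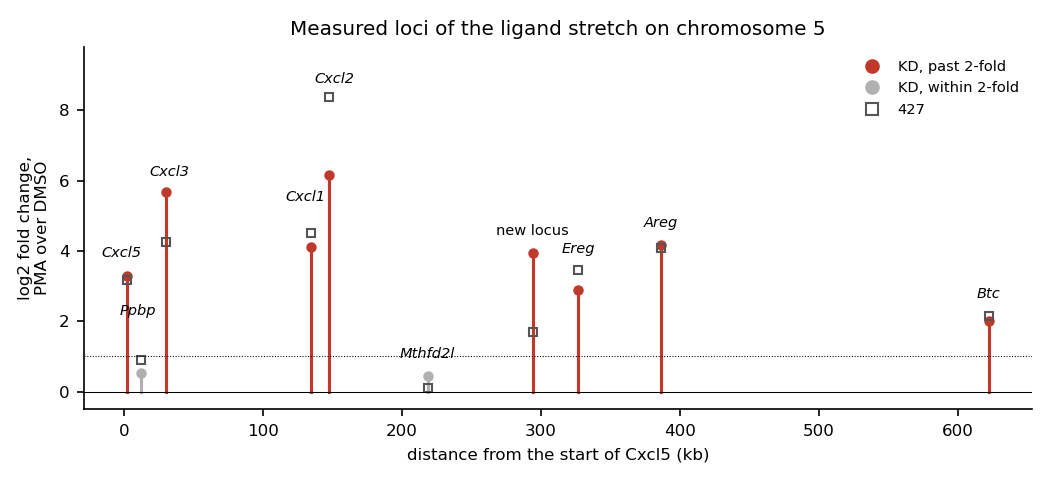
Log2 fold change, PMA over DMSO, of the 10 measured loci between Cxcl5 and Btc by distance from the start of Cxcl5 in kb. Circles are the libraries labelled KD (red past 2-fold, grey within) and squares 427 cells; 8 of 10 circles are red, and Ppbp and Mthfd2l are within 2-fold.

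The 150 bases before Areg are shown because, unlike those of the CXC ligands shown above, they held a cyclic AMP response element (CRE, TGACGTCA), and those before Il1a and Mmp13 because they held an AP-1 element (TGANTCA), the sequence first described as the phorbol ester response element. Capitals mark these matches and the TATA letters.
Areg, chr5:91139449-91139598, plus strand: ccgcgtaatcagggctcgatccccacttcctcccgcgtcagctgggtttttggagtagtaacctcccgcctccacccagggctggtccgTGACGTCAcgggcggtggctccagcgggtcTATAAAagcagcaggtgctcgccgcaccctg
Il1a, chr2:129309973-129310122, minus strand: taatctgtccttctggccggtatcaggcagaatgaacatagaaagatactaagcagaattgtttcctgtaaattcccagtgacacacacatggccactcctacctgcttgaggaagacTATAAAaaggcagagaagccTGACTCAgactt
Mmp13, chr9:7272364-7272513, plus strand: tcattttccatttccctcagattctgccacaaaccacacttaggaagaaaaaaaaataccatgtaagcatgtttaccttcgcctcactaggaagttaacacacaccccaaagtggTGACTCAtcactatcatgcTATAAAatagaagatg

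The CRE began 61 bases before the start of Areg, and the AP-1 match 12 bases before that of Il1a and 35 before that of Mmp13. Of all promoter windows, 1.55% held the CRE letters and 6.75% the AP-1 letters, searched on both strands. Of the 8273 windows found for 10353 measured annotated loci with a symbol, 3.05% held the CRE letters and 4.05% the AP-1 letters. No kappaB match fell in the 250 bases before Areg, Il1a or Mmp13.

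After 2 h of PMA, the only time sampled, transcription factors of the immediate early response stood lower than the ligands in median log2 fold change. Of 15 AP-1 and small Maf genes, 12 were measured and 5 raised, beside 3.31% of all annotated loci. Their median log2 fold change was 0.31. Fosl1, which encodes Fra-1, had 1.92 FPKM with DMSO and 49.5 with PMA, a 25.7-fold rise (counting interval 21.1 to 32.3), and was the largest increase of any transcription factor in these lists. Maff had 5.51 and 22.0 FPKM and Junb had 29.7 and 61.1. Fos and Fosb were low at that time, with 2.54 and 1.83 FPKM with PMA beside 0.823 and 0.445 with DMSO. They were no longer past 2-fold when 1 FPKM was added. Mafg and Fosl2 were within 2-fold, with 73.0 and 35.4 FPKM with DMSO and 81.4 and 32.2 with PMA.

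Egr, Nr4a and Ier genes gave 4 raised of 15 measured, beside 3.31% raised and 5.42% lowered of all annotated loci. Ier3, an early target of ERK and NF-κB, had 18.8 FPKM with DMSO and 151.6 with PMA, a log2 fold change of 3.01. Egr3 had 0.101 and 1.20 FPKM, and Nr4a1, an orphan nuclear receptor gene, had 2.35 and 5.34. Ier2 was at the threshold, with 16.9 and 33.8 FPKM. With 1 FPKM added, Nr4a1 and Ier2 were within 2-fold, at log2 fold changes of 0.92 and 0.96, and Egr3 was at 1.00, no longer past it. Among 11 measured Krüppel-like factors none was raised, and Klf11 was lowered from 5.11 to 2.25 FPKM, a log2 fold change of -1.18 that was -0.91 with 1 FPKM added.

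Some NF-κB subunits and inhibitors were raised. Relb had 3.94 FPKM with DMSO and 23.7 with PMA, Nfkb2 had 38.2 and 120.1, and Nfkb1 had 43.1 and 100.0, so that 3 of 5 subunits were raised. Rela had 44.1 and 56.2 FPKM and Rel had 9.89 and 8.16. Of 12 measured inhibitors and feedback genes, 5 were raised, and both counts stand beside 3.31% of all annotated loci. The raised inhibitors and feedback genes included Tnfaip3, the A20 deubiquitinase, with 9.99 and 50.4 FPKM, Bcl3 with 4.44 and 19.4, and Nfkbia with 20.1 and 40.6.

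Several negative regulators of ERK were raised. Of 11 measured dual-specificity phosphatases, 4 were raised and 1 lowered, beside 3.31% and 5.42% of all annotated loci. Dusp6, a cytoplasmic phosphatase of ERK, had 5.98 FPKM with DMSO and 82.0 with PMA, a 13.7-fold rise (counting interval 12.4 to 15.2). Dusp4 had 5.59 and 22.6 FPKM, Dusp5 had 10.2 and 36.7 and Dusp7 had 30.6 and 69.1, all of which act on ERK. Dusp1, which also acts on p38 and JNK, moved the other way, from 15.5 to 7.19 FPKM, a log2 fold change of -1.11 that was -0.97 with the median ratio set to 0.

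Of 8 measured Sprouty, Spred and related genes, 1 was raised: Errfi1, an inhibitor of the EGF receptor kinase, had 16.9 FPKM with DMSO and 45.5 with PMA. Of 11 measured factors that act on AU-rich mRNAs, Zc3h12a, the ribonuclease Regnase-1, was raised from 5.66 to 16.3 FPKM. None of 7 measured phorbol ester receptors, 6 diacylglycerol kinases and 14 members of the Ras, Raf, MEK and ERK chain was called. All these counts stand beside 3.31% raised and 5.42% lowered of all annotated loci, at which lists this small would hold few calls. Prkca had 5.08 and 9.79 FPKM and Prkcd had 23.3 and 39.3.

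Cytokine receptors and their inhibitors gave 8 raised and none lowered of 19 measured, beside 3.31% raised among annotated loci, and their median was 0.55 on the log2 scale. Among the 17 at 1 FPKM or more in both libraries, 6 were raised, and Tnfrsf1b was within 2-fold, at 0.91, with 1 FPKM added. Il15ra had 1.07 FPKM with DMSO and 5.63 with PMA, Il4ra had 7.52 and 19.6, and Socs5, of the suppressors of cytokine signalling, had 10.9 and 24.3. Il6st, which encodes the shared gp130 chain, had 23.8 and 31.9 FPKM and was within 2-fold.

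Genes of pericellular proteolysis and adhesion changed in both directions. Plaur, the urokinase receptor, had 13.3 FPKM with DMSO and 116.5 with PMA, a log2 fold change of 3.13, while Plau, urokinase itself, had 24.8 and 38.2. Of 9 measured metalloproteinases and inhibitors, Mmp3, Mmp13 and Timp1 were raised, beside 3.31% of all annotated loci. The list median was -0.46 on the log2 scale, beside -0.15 for all annotated loci. Mmp3 and Mmp13 reached 1 FPKM with PMA alone, at 1.33 and 3.55, and Timp1 went from 70.4 to 176.7 FPKM. Of the 7 at 1 FPKM or more in both libraries, 1 was raised and 1 lowered. Mmp11, stromelysin-3, was lowered from 14.6 to 4.46 FPKM.

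Around epithin, 2 of 6 measured genes were raised, beside 3.31% raised and 5.42% lowered of all annotated loci. F2rl1, which encodes the protease-activated receptor PAR2, had 80.4 FPKM with DMSO and 262.1 with PMA, and Prss22, a serine protease, had 17.3 and 58.2. The epithin inhibitors Spint1 and Spint2 had 67.3 and 134.5 FPKM with DMSO and 88.5 and 129.3 with PMA. Among sheddases and intramembrane proteases, 21 were measured, and Adamts4 and Rhbdf1, which encodes an ADAM17 partner, were raised, Rhbdf1 from 40.2 to 84.4 FPKM, while Adamts6 was lowered. Sppl2a, the close relative of Sppl2b, had 61.0 and 61.3 FPKM.

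Cd44, the hyaluronan receptor, had 63.7 FPKM with DMSO and 328.4 with PMA. Of 16 laminin, integrin and Cd44 genes measured, 3 were raised, with Lamb1 going from 26.9 to 60.6 FPKM. Of 23 junction genes, 4 were raised and 2 lowered. Cldn1 had 5.01 and 22.1 FPKM and Cldn4 had 104.1 and 319.6, both claudins of tight junctions, while Tjp3, which encodes the ZO-3 scaffold, was lowered from 2.50 to 0.794 FPKM, a log2 fold change of -1.64 that was -0.96 with 1 FPKM added. Of 13 measured factors of the epithelial-mesenchymal transition, 1 was raised and 1 lowered, and their median log2 fold change was 0.04. Counts in these lists stand beside 3.31% raised and 5.42% lowered of all annotated loci. Ovol2, a repressor of mesenchymal genes in epithelia, was lowered from 5.17 to 1.42 FPKM, and Twist2 was raised to 27.7, a log2 fold change of 1.33.

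Growth factors were called in both directions. Of 19 measured, 7 were raised and 4 lowered, beside 3.31% and 5.42% of all annotated loci. Of the 16 at 1 FPKM or more in both libraries, 6 were raised and 2 lowered. Vegfa had 7.39 FPKM with DMSO and 43.9 with PMA, Pdgfb had 20.8 and 81.5, and Hgf had 0.318 and 2.99. Bmp4 was lowered from 7.84 to 2.42 FPKM and Fgf1 from 3.52 to 0.991. Of 12 measured TGF-β and BMP feedback and Id genes, 2 were raised and 3 lowered, with a median log2 fold change of -0.08. Smad6, Nog and Id2 were the lowered members, Smad6 from 2.47 to 0.395 FPKM and Id2 from 5.36 to 1.78, while Smad7, an inhibitor of TGF-β receptors, was raised from 3.82 to 10.1 and Tgif1 from 49.7 to 110.8. Nppb, which encodes the B-type natriuretic peptide, was among the 10 largest increases, with 1.48 and 18.9 FPKM. Gm1045 (chromosome 5, 91987232 to 92003738) and Sh2d5 were as well, with 0.846 and 39.0 FPKM and with 3.15 and 39.0 FPKM.

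In the cell cycle list, 3 of 30 genes were raised, beside 3.31% of all annotated loci. The calls were the D-type cyclin genes Ccnd1 and Ccnd2 and the kinase gene Cdk6. Ccnd1, cyclin D1, had 15.8 FPKM with DMSO and 121.2 with PMA, a log2 fold change of 2.94, its kinase partner Cdk6 had 12.5 and 39.8, and Ccnd2 had 33.4 and 76.7. The other 27 of 30 genes were within 2-fold, among them Cdk1 with 405.1 and 343.6 FPKM and Pcna with 308.2 and 273.6. Myc had 33.0 and 79.9 FPKM, while Mxd4 and Mxd3, which encode repressors that compete with MYC for MAX, were lowered from 22.3 to 6.49 and from 4.96 to 2.32. The Mxd3 value passed to a log2 fold change of -0.96 once the median ratio was set to 0.

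The lowest median belonged to the list of FOXO and growth-restraint genes. Of 18 measured, 7 were lowered and none raised, beside 5.42% of annotated loci lowered, and the median log2 fold change was -0.76. Txnip, a thioredoxin inhibitor that limits glucose uptake, had 31.9 FPKM with DMSO and 9.17 with PMA. Klhl24 had 32.2 and 9.05 FPKM, Ccng2, a cyclin of arrested cells, had 60.9 and 17.5, and Cdkn1b, the inhibitor p27, had 78.0 and 32.9. Pik3ip1, Rbl2 and Cdkn2b were the others, and Rbl2 was within 2-fold, at -0.92, with the median ratio set to 0. Foxo3 did not follow them and had 25.6 and 49.7 FPKM, while Foxo4 had 29.9 and 18.5, both within 2-fold.

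Of 17 p53 targets and arrest genes, 3 were lowered and 2 raised. These counts and those that follow stand beside 5.42% lowered and 3.31% raised of all annotated loci. Trp53inp1 had 18.0 FPKM with DMSO and 3.35 with PMA, a log2 fold change of -2.43, Sesn1 had 18.0 and 5.51, and Gadd45g had 28.0 and 9.90. Plk3 and Phlda1 were raised, to 18.6 and 21.9 FPKM. Bmf, a pro-apoptotic BH3-only gene, was lowered from 3.27 to 0.381 FPKM, a log2 fold change of -3.07, and was alone in 14 measured BCL2 family and survival genes to be called. In the Notch list of 10, the ligand Dll1 was lowered from 61.3 to 15.7 FPKM and Hes6 from 14.2 to 5.86. In the integrated stress response list, Vldlr and Nupr1 were the 2 lowered of 14 measured, and none was raised. The clock output gene Hlf, with 6.30 and 1.58 FPKM, was lowered too. Among 12 SRF and YAP targets Ctgf was raised, from 18.0 to 58.0 FPKM, and of 8 prostaglandin genes 1 was lowered, while Ptgs2, the inducible cyclooxygenase, had 56.6 and 111.3 FPKM, just within 2-fold. Clock genes gave 2 calls each way in 14, Bhlhe40 among the raised with 24.5 and 60.5 FPKM. Of the others, Per2 and Per3 were within 2-fold with 1 FPKM added, at log2 fold changes of 0.51 and -0.82. Of 6 replication histone genes, which poly(A) selection recovers poorly, Hist1h4k and Hist1h4n were lowered, and both were within 2-fold with 1 FPKM added, at -0.78 and -0.55. None of the 3 at 1 FPKM or more in both libraries was called.

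Further decreases were large in genes outside these lists. Fry, a microtubule-binding protein gene, had 17.5 FPKM with DMSO and 2.1 with PMA (counting interval of the ratio 0.110 to 0.130), Narf had 45.4 and 10.1, and Tcf7l1, a repressor of Wnt targets, had 13.4 and 3.22. These 3 were also lower with PMA in 427 cells, by log2 fold changes of -2.72, -1.73 and -1.20.

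Other large decreases went with a high value in the library labelled KD DMSO. Nrd1, nardilysin, had 382.3 FPKM there and 50.3 with PMA, while the 4 libraries outside this comparison lay between 49.8 and 61.9. Rps27 had 2914 and 982.5 FPKM, with 613.9 and 925.2 in 427 cells with DMSO and PMA. Zfp93 had 44.6 and 1.96 FPKM and was also high, at 37.2, in the cells labelled KD GFP, with 1.46 to 2.20 in the rest. Of the 561 lowered annotated loci, 43 stood more than 2-fold higher in the library labelled KD DMSO than in each of the other 5 libraries, and of the 343 raised loci, 37 stood more than 2-fold lower there. In the library labelled KD PMA, 26 of the lowered loci stood more than 2-fold lower than in each of the other 5. There, 5 of the raised loci stood more than 2-fold higher. A called locus meets the comparison between KD DMSO and KD PMA by definition. The part of either library in these calls was not tested.

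Short loci and pseudogenes were among them. The 10 largest decreases held Gm11027, Rpl10-ps3, Gm11808 and Gm10146, each of which was higher with PMA in 427 cells. Of annotated loci with a longest transcript under 500 bases, 10 of 39 were lowered, and 1 of those 10 had the same direction in 427 cells, against 503 of 536 (93.8%) lowered loci with longer transcripts. Rpl10-ps3 is named as a pseudogene of Rpl10, and its value is uncertain because reads of near-identical copies cannot be told apart.

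The lists of basic cell functions are read beside the 3.31% raised and 5.42% lowered of all annotated loci. Of 78 ribosomal protein genes, 2 were raised and 1 lowered, with a median log2 fold change of -0.04 (0.10 with the median ratio set to 0), and of 71 oxidative phosphorylation genes, 1 was lowered, with a median of -0.16. None of 14 housekeeping genes was called, and Gapdh had 1595 and 1527 FPKM. Cholesterol synthesis had no call in 17 genes and a median of -0.38, with no member above 0 before rescaling and Hmgcs1 going from 210.4 to 108.8 FPKM. Of 237 zinc finger genes named Zfp, 3 were raised and 17 lowered (median -0.25), of 20 glycolysis and hypoxia genes 1 each way, and of 15 heat shock genes 1 was lowered. Of 9 interferon-stimulated genes and 14 NRF2 genes, 1 each was lowered, Stat2 from 15.9 to 7.10 FPKM and Ftl1, ferritin light chain, from 310.1 to 77.8.

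**Figure D4:**
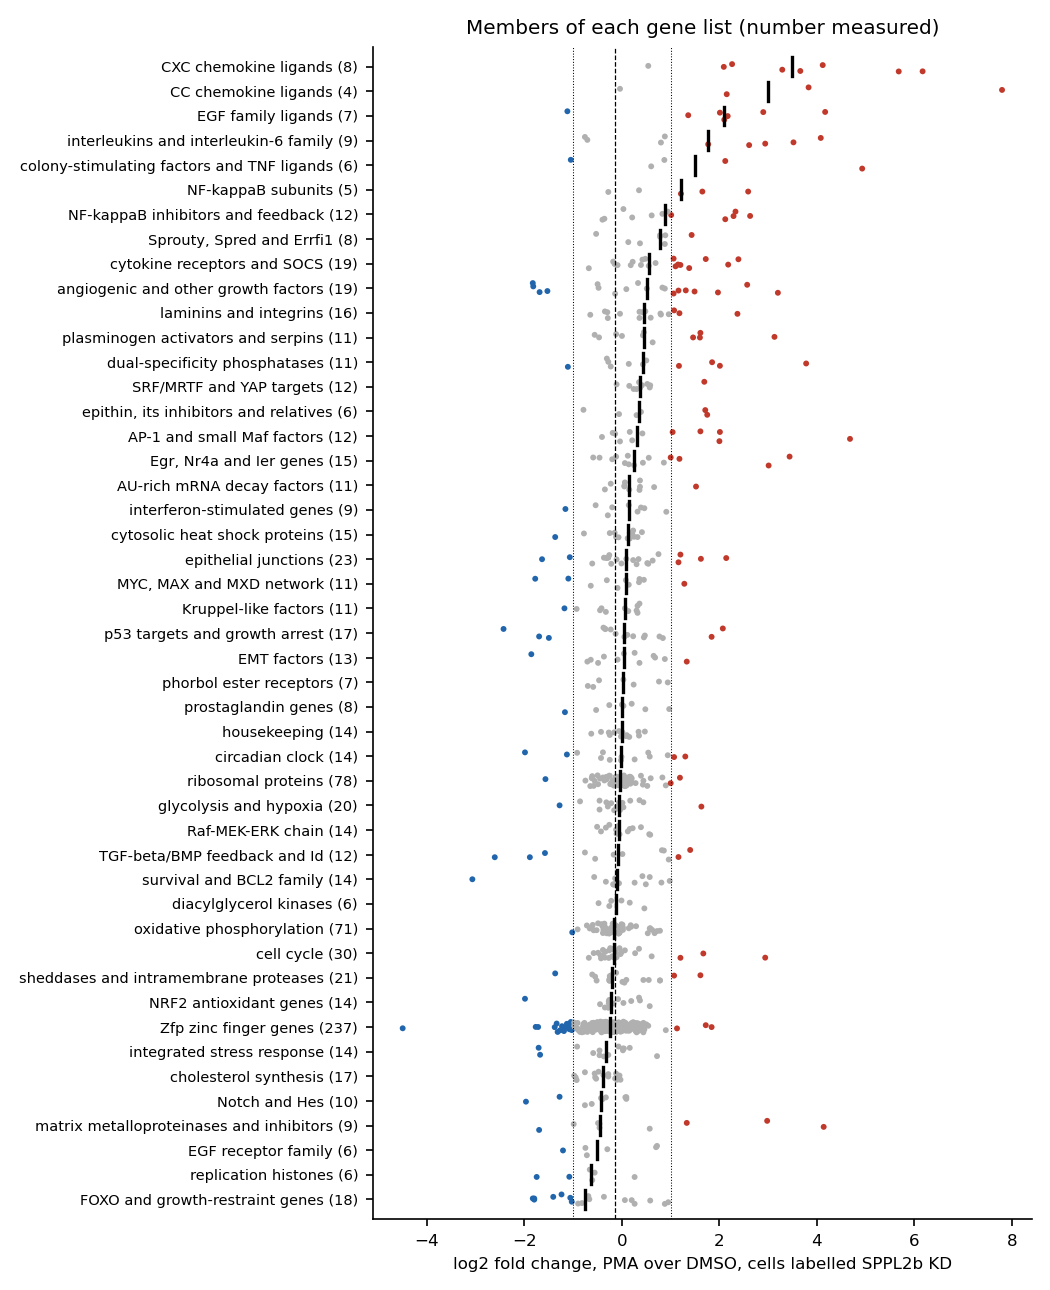
Log2 fold change, PMA over DMSO, of every measured member of 47 gene lists in the cells labelled SPPL2b KD (1 point per gene, red past 2-fold higher, blue past 2-fold lower, black bar the list median, dashed line the median of all measured loci). Csf2, at 0 with DMSO, is not drawn; chemokine and EGF ligands stand at the top and the FOXO and growth-restraint list, at a median of -0.76, at the bottom.

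In 427 cells, which share no library with this comparison, most of the called loci moved the same way. Of the 343 raised annotated loci, 329 (95.9%) were higher with PMA in 427 cells and 246 (71.7%) were past 2-fold, beside 3.47% of the 10356 annotated loci. Of 386 loci raised in 427 cells with 1 FPKM or more there, 240 (62.2%) were raised in the cells labelled KD. Of the 561 lowered loci, 518 (92.3%) were lower in 427 cells and 304 (54.2%) past 2-fold, beside 4.54%. Of 471 loci lowered in 427 cells, 281 (59.7%) were lowered here. No difference between the lines was tested.

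**Figure D5:**
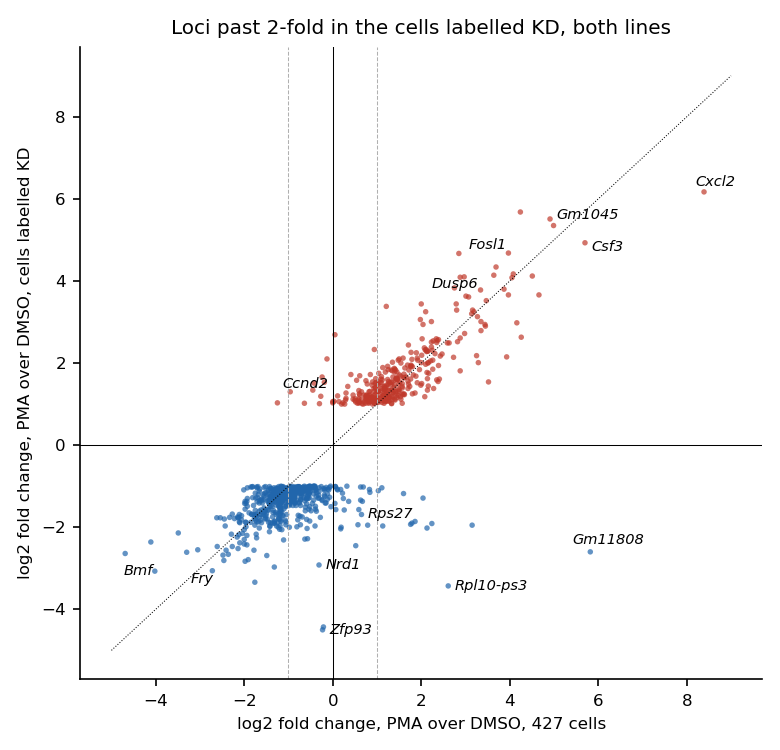
Log2 fold change, PMA over DMSO, in the cells labelled KD against that in 427 cells, for annotated loci past 2-fold in the former and above 0 in all 4 libraries (red raised, blue lowered). The dotted line marks equal values; most points lie in the lower left and upper right, while Gm11808 and Rpl10-ps3 lie at the lower right.

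For loci raised in both lines, levels were mostly lower here than in 427 cells, with DMSO as well as with PMA. Of the 246 loci raised in both lines, 185 (75.2%) had a lower FPKM in the library labelled KD PMA than in 427 PMA, beside 45.9% of all annotated loci. With DMSO, 185 (75.2%) had a lower FPKM in the library labelled KD DMSO than in 427 DMSO, beside 43.6% of all annotated loci. Cxcl1 reached 168.2 FPKM here and 638.1 in 427 cells, Il1a reached 160.5 and 405.7, Csf3 reached 14.1 and 80.5, and Cxcl2 reached 3.96 and 48.2. Their DMSO values were lower too, as 9.65 and 28.1 FPKM for Cxcl1 and 13.9 and 36.7 for Il1a, and log2 fold changes here and in 427 cells were 4.12 and 4.51 for Cxcl1, 3.52 and 3.47 for Il1a, 4.93 and 5.70 for Csf3 and 6.17 and 8.39 for Cxcl2. Relb, Nfkb2 and Cd44 went against this, with 23.7, 120.1 and 328.4 FPKM here and 22.1, 94.5 and 326.6 in 427 cells. Ccnd2 was past 2-fold here and had 25.8 and 27.8 FPKM in 427 cells.

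Raised loci had a lower median span and fewer exons. With GENCODE M21 models, found for 97.4% of raised, 97.3% of lowered and 95.9% of all annotated loci, the median genomic span was 18.5 kb for raised loci, 25.1 kb for lowered and 24.5 kb for all. The median number of exons of the longest transcript was 5, 7 and 8, and genes spanning under 10 kb made up 33.5%, 25.3% and 23.4%. Newly assembled loci were called more often than annotated ones, with 78 of 631 raised and 142 lowered, and their median log2 fold change was -0.32.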

How the data were processed

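RNA was poly(A)-selected, made into libraries with the TruSeq RNA kit and sequenced as paired reads of 100 bases. The submitters' processing notes name TopHat2 2.1.1, Cufflinks 2.1.1, Cuffdiff 2.1.1 and, without its role, STAR 2.4.0b, on GRCm38, and the authors deposited 1 FPKM value per locus and library. FPKM rests on assembled models, so short, overlapping or duplicated loci can take reads of others. Log2 fold changes of PMA over DMSO were taken from these values after adding 0.01 to both, at a minimum of 1 FPKM in either library, and calls were made past 2-fold (Python 3.11.15, NumPy 2.4.6, SciPy 1.17.1, pandas 2.3.3, matplotlib 3.10.9). With 1 library a condition there was no test. Fragments were estimated from the lowest FPKM of genes with 1 transcript of over 2500 bases. The 95% counting intervals are exact binomial, are for ratios with nothing added, and cover counting error only. Samples were grouped by their labels. Members and gene lists were chosen with earlier results of these data known. Genes named are the 10 largest increases and decreases at 10 FPKM or more, up to 6 called and 3 uncalled members per list, Sppl2b, St14 and Adam17, and others only where noted. Scripts were tested on simulated data. Alternatives changed the amount added (0.1, 1), the minimum (0.1, 10, none), the scaling and the loci kept.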

Additional observations from a re-analysis of the deposited data

Results flagged for a closer look

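Among the genes named by rule, 3 were past 2-fold in opposite directions in the cells labelled SPPL2b KD and in 427 cells, and the difference between the lines was not tested. Gm11027, a short locus on chromosome 12, had 56.2 FPKM in the library labelled KD DMSO and was listed at 0 with PMA, while 427 cells had 0 with DMSO and 35.7 with PMA. Gm11808 had a log2 fold change of -2.60, from 57.8 to 9.51 FPKM, where 427 cells went from 0.107 to 6.62. Gm10146 had a log2 fold change of -2.02, from 51.1 to 12.6 FPKM, where 427 cells went from 1.81 to 7.97. In each case the library labelled KD DMSO held the highest value of the 6 libraries.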

How the results depend on the processing

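No paired analysis was possible because each condition has 1 library. The 421 raised and 703 lowered loci became 1161 and 1876 at a minimum of 0.1 FPKM, 1789 and 2671 with no minimum and 237 and 219 at a minimum of 10 FPKM, and with 1 FPKM added 322 loci were lowered and 318 raised. Under the other alternatives both counts stayed within 1.5 times. With the median log2 ratio set to 0, the list medians became -0.03 for the cell cycle, 0.26 for heat shock proteins, 0.08 for glycolysis and hypoxia, 0.10 for ribosomal proteins, -0.02 for oxidative phosphorylation and -0.10 for zinc finger genes, and the last was -0.14 at a minimum of 10 FPKM. Of the 147 named genes past 2-fold, 25 were no longer past 2-fold with 1 FPKM added and 8 with the median ratio set to 0. None changed direction, but these alternatives could not have reversed one. They added the same amount to both libraries, changed the loci kept or rescaled by little. An alternative chosen after seeing the data, transcripts of 500 bases or more, gave 330 raised and 536 lowered loci. Depth limits the genes near 0 with DMSO, and without replicates the spread between cultures is unknown.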
